A study of Mus musculus with 8 samples.

Results

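The genes described here are Nfe2l2, which encodes the transcription factor NRF2, its inhibitor gene Keap1 and 8 enzyme genes that NRF2 is known to induce: Gclc, Gclm, Gsr, Txnrd1, Srxn1, G6pdx, Me1 and Nqo1. They were taken by gene symbol, and all 10 were found among the 55335 genes of the files. NRF2 is held at low levels by KEAP1, an adaptor that marks it for degradation through the CUL3 ubiquitin ligase. When oxidants or electrophiles modify KEAP1, NRF2 is released, enters the nucleus with a small MAF protein and binds antioxidant response elements. Its targets make and recycle glutathione, reduce thioredoxin and peroxiredoxins and supply NADPH. Because NRF2 is controlled mainly at the protein level, its own transcript is not a measure of its activity, and in T cells, macrophages and melanoma cells alike these genes belong to the ordinary defence against peroxides.

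RNA came from cells sorted as CD8 T cells out of B16 tumours, B16 being a mouse melanoma line. One group of hosts was C57BL/6 wild type and the other was CD36 KO on a C57BL/6 background, so the hosts lacked the lipid scavenger receptor gene while the injected tumour line was the same in both. The cells were given i.v. and tumours were collected after 14 days. The labels used here state no sex, age, mouse number or sort gate. By their titles, the 8 samples come from 4 sequencing lanes of 1 library per genotype, called WT and CD36_KO below. No difference between genotypes therefore has a replicate check, no p-value is given, and every interval covers counting error only. Because no molecular identifier marks PCR copies, reads do not stand for separate molecules, and even that error may be larger.

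The libraries held 10071960 (WT) and 10363391 (CD36_KO) estimated counts. The targeted gene Cd36 had 287, 299, 307 and 301 counts in the WT lanes and 107, 86, 88 and 77 in the CD36_KO lanes, lower in every CD36_KO lane, as labelled, with 25.4% of the WT level remaining (log2 ratio -1.98, counting interval -2.15 to -1.80). The labels used here do not say which exons the allele lacks. Transcripts of several cell types were present in both libraries, and all 83 marker genes that were looked for and found had counts in each. The summed level of 12 CD8 T cell markers was 349 CPM (scaled counts per 1000000; 344 to 358 over lanes) in WT and 1164 CPM (1151 to 1183) in CD36_KO, and all 12 were at least 2-fold higher. The 12 melanoma markers summed to 5727 CPM (5639 to 5870) against 1395 CPM (1369 to 1416), and all 12 were at least 2-fold lower. Dct, a melanin synthesis enzyme gene, stood at 324 ± 10.5 TPM (transcripts per 1000000; SD over 4 lanes) and 104 ± 2.36 TPM, against 10.6 ± 0.485 and 59.0 ± 1.17 TPM for Cd8a. The defining markers of CD8 T cells were thus present, but Dct stood above Cd8a in both libraries. In such mixed RNA, fewer cells of a type and less RNA per cell cannot be told apart.

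Antioxidant response elements share a short core, and the promoter windows of the members were searched for it to show where a known type of NRF2 site lies close to a start. The core was written as TGACNNNGC and searched on both strands in RefSeq windows of 300 bases, from 250 before to 50 after each start site (build GRCm38.p6). It overlaps the AP-1 site TGACTCA, which stands inside the Me1 match. Windows were given for 8 of the 10 genes, and Gclc and Gsr had none. A match stood in a window of 6 of these 8 genes, whereas 14.0% of the 27025 genes with a window and 12.4% of the 32851 windows held one. The matches are printed below 5′ to 3′ on the gene's strand, with the matched 9 bases in capitals and 10 bases on either side.
Nfe2l2 (chr2:75704885-75704913, minus strand, match begins 240 bases before the start): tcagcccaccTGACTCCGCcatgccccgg
Gclm (chr3:122245413-122245441, plus strand, 134 before): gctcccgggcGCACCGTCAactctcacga
Txnrd1 (chr10:82859104-82859132, plus strand, 92 before): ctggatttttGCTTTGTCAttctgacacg
Srxn1 (chr2:152105542-152105570, plus strand, 28 after): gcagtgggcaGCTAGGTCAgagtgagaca
G6pdx (chrX:74428919-74428947, minus strand, 57 before): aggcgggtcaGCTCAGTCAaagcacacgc
Me1 (chr9:86695902-86695930, minus strand, 6 before): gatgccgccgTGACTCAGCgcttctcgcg
The Nfe2l2 and Me1 matches read TGACNNNGC on the gene's strand, and the other 4 lie on the opposite strand. No match was found in the windows of Nqo1 and Keap1, which says only that these letters are absent from these windows. Txnrd1 and Me1 had more than 1 window. The Txnrd1 window at the start of its gene model (chr10:82833701-82834000) held no match, so the match printed above lies at an internal start. A further Me1 window (chr9:86687228-86687527) also held none. Over 1516 measured genes with a match the median log2 ratio was -0.16, with 9.17% at least 2-fold lower and 4.82% at least 2-fold higher. The 7486 measured genes with a window but no match had a median of -0.15, with 9.91% lower and 6.10% higher. A core this short also occurs by chance, so these values cannot show whether NRF2 sites go with a direction.

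Across the set, 1 gene stood out by size: Me1 in CD36_KO was at 23.5% of the WT level, Txnrd1 and Srxn1 lay at about 60% of the WT level, and the regulators and glutathione genes lay between 84.5% and 109% of it. The value used was the log2 ratio of CPM, CD36_KO over WT, after TMM scaling, which corrects library sizes for composition. A gene with a mean of at least 5 CPM over the libraries was taken as measured, and 9 of the 10 members passed, all but Nqo1. A gene was called when its ratio was at least 2-fold and its 95% counting interval (exact Clopper-Pearson) excluded no difference. Of the 9 measured members 1 was lower, 0 were higher and 8 lay between, where 10.8% of 12177 measured genes were lower and 6.5% higher. A share of 1 in 9 is close to that background. The median over the 9 was -0.24, beside -0.13 over all measured genes. All CD36_KO lanes lay below all WT lanes for 4 of the 9, as for 33.3% of all measured genes, and above them for 0 of the 9, against 19.6%. The lanes overlapped for the other 5, as for 47.1% of all measured genes. The members together summed to 523 CPM in WT (511 to 535 over lanes) and 402 CPM in CD36_KO (379 to 423).

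**Figure D1:**
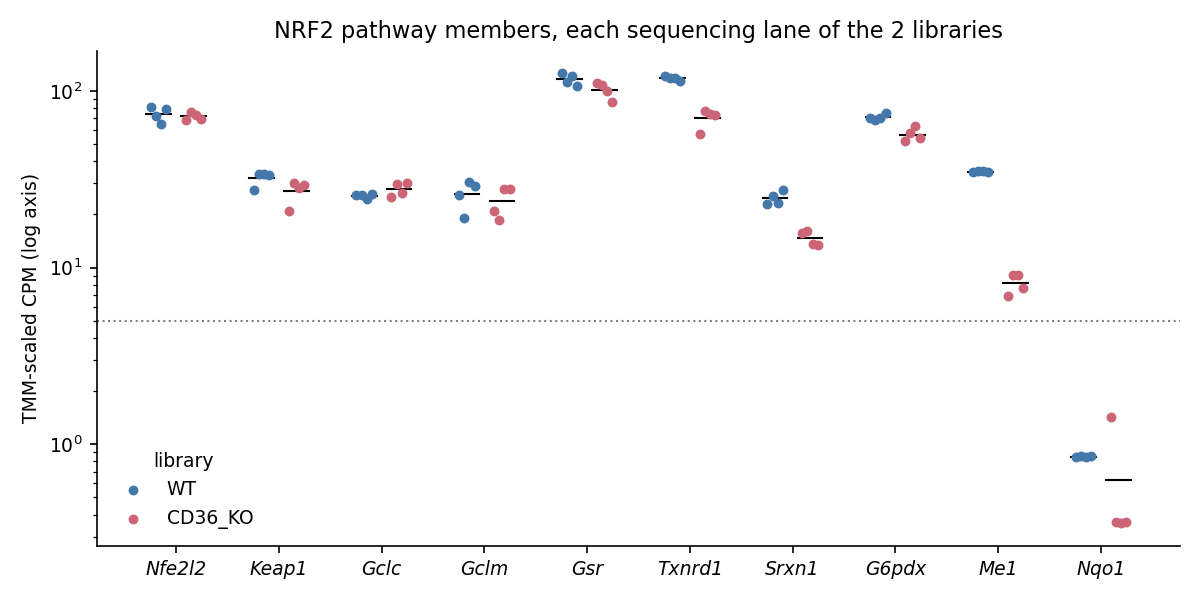
Level of each member in the 4 lanes of the WT library (blue) and of the CD36_KO library (red), as TMM-scaled CPM on a log axis. Black bars are lane means and the dotted line marks 5 CPM. The lanes of Me1, Txnrd1, Srxn1 and G6pdx separate by genotype, those of the other members overlap, and Nqo1 lies under the line.

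With TMM scaling, the transcript of NRF2 differed between the libraries by less than its counting error. That of its inhibitor was slightly lower in CD36_KO on this scale, but its ratio was 0.22 with log2(TPM + 1). Nfe2l2 (ENSMUSG00000015839.6; GRCm38 chromosome 2, 75675513 to 75704641, minus strand) had 191, 167, 153 and 184 counts in the WT lanes and 192, 209, 205 and 191 in the CD36_KO lanes. The scaled levels overlapped, at 64.6 to 80.6 CPM and 68.7 to 76.0 CPM. The CD36_KO library stood at 97.2% of WT (87.7 to 108), a log2 ratio of -0.04 (-0.19 to 0.11). Keap1 (ENSMUSG00000003308.15; chromosome 9, 21229730 to 21239361, minus strand) had 65, 79, 80 and 78 counts against 59, 83, 78 and 81. Its lanes also overlapped, and its log2 ratio was -0.24 (-0.48 to -0.01), or 84.5% of WT. Lane 1 was the lowest Keap1 lane in both libraries. For each 100 counts of Nfe2l2 there were 43.5 of Keap1 in WT (34.0 to 52.5 over lanes) and 37.8 in CD36_KO (30.5 to 42.3), a comparison that no scaling between libraries can alter.

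None of the 3 glutathione genes of the set reached a 2-fold difference, and their lanes overlapped. GCLC is the catalytic and GCLM the modifier subunit of glutamate-cysteine ligase, the enzyme of the rate-limiting step of glutathione synthesis, and GSR reduces oxidised glutathione with NADPH. Gclc (ENSMUSG00000032350.9; chromosome 9, 77754535 to 77794485, plus strand) had 61, 60, 58 and 61 counts in WT and 70, 82, 74 and 83 in CD36_KO. Its log2 ratio of 0.13 (-0.12 to 0.38) was the one positive value among the measured members with TMM scaling, and its scaled lanes overlapped (24.5 to 26.1 CPM and 25.03 to 30.2 CPM). Gclm (ENSMUSG00000028124.15; chromosome 3, 122245557 to 122270732, plus strand) had 61, 44, 72 and 67 counts against 59, 51, 78 and 76, with a log2 ratio of -0.13 (-0.39 to 0.13). Lane 2 was lowest in both libraries, and the lanes ranged more widely here (19.0 to 30.6 CPM in WT) than for Gclc. Counts of the catalytic subunit per 100 of the modifier were 98.0 in WT (80.0 to 135 over lanes) and 117 in CD36_KO (94.5 to 161), ranges that overlap. Gsr (ENSMUSG00000031584.16; chromosome 8, 33652523 to 33698163, plus strand) had 298, 263, 286 and 249 counts against 310, 298, 280 and 239. The lanes overlapped (107 to 126 CPM and 86.8 to 111 CPM), and the log2 ratio was -0.20 (-0.32 to -0.08), or 87.2% of WT.

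Txnrd1 and Srxn1 were lower with TMM scaling, without reaching 2-fold, but on the log2(TPM + 1) scale their ratios were 0.00 and -0.08. TXNRD1 is the cytosolic thioredoxin reductase, which uses NADPH, and SRXN1 is sulfiredoxin, which restores over-oxidised peroxiredoxins. Txnrd1 (ENSMUSG00000020250.10; chromosome 10, 82833951 to 82897712, plus strand) had 289, 276, 279 and 267 counts in WT and 159, 212, 208 and 201 in CD36_KO. The lowest WT lane, at 114 CPM, lay above the highest CD36_KO lane, at 77.0 CPM. The log2 ratio was -0.75 (-0.88 to -0.62), or 59.5% of WT (54.2 to 65.3). Srxn1 (ENSMUSG00000032802.8; chromosome 2, 152105516 to 152111376, plus strand) had 54, 59, 55 and 64 counts against 44, 44, 38 and 37. Its lanes were also apart, at 22.8 to 27.4 CPM and 13.4 to 15.99 CPM, and its log2 ratio of -0.75 (-1.05 to -0.45) matched that of Txnrd1 with a wider interval. The ratio of the glutathione and thioredoxin reductase transcripts differed between the libraries: Gsr per 100 counts of Txnrd1 was 98.6 in WT (93.3 to 103 over lanes) and 144 in CD36_KO (119 to 195), with no overlap.

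The NADPH genes held the largest difference of the set. G6PDX catalyses the first step of the pentose phosphate pathway, and ME1, the cytosolic malic enzyme, makes NADPH while turning malate into pyruvate. G6pdx (ENSMUSG00000031400.10; chromosome X, 74409483 to 74429194, minus strand) had 166, 160, 167 and 174 counts in WT and 145, 158, 176 and 148 in CD36_KO. Its scaled lanes were narrowly apart, at 68.6 to 74.4 CPM and 51.9 to 62.9 CPM, with a log2 ratio of -0.33 (-0.49 to -0.17). Me1 (ENSMUSG00000032418.15; chromosome 9, 86581371 to 86695953, minus strand) had 82, 82, 83 and 81 counts in the WT lanes. In the CD36_KO lanes it had 19, 25, 25 and 21. The scaled lanes were 34.5 to 35.2 CPM and 6.90 to 9.09 CPM, far apart, and the log2 ratio was -2.09 (-2.44 to -1.75), which left 23.5% of the WT level (18.4 to 29.8). Of all measured genes 1.89% had a lower ratio. Me1 per 100 counts of G6pdx was 49.2 in WT (46.4 to 51.3 over lanes) and 14.5 in CD36_KO (13.3 to 15.8). In these libraries the median log2 ratio was -2.26 over the melanoma markers and -1.76 over the fibroblast markers, and the part of those cells in the Me1 difference was not tested.

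The mitochondrial malic enzyme genes did not share the Me1 difference. Me2 had 462 and 618 counts (log2 ratio 0.18, 0.01 to 0.36), with overlapping lanes. Me3 had 41 and 33 counts and was below 5 CPM. Me1 per 100 counts of Me2 was therefore 71.0 in WT (64.6 to 78.2 over lanes) and 14.7 in CD36_KO (11.3 to 18.1).

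Nqo1, the quinone reductase gene that is often used as a readout of NRF2, was near the limit of detection in both libraries. Nqo1 (ENSMUSG00000003849.8; chromosome 8, 107388225 to 107403206, minus strand) had 2 counts in each WT lane and 4, 1, 1 and 1 in the CD36_KO lanes, or 8 and 7 in all. This is 0.85 and 0.63 CPM. Its log2 ratio of -0.43 had an interval from -2.13 to 1.23, so a 2-fold difference either way was not detectable at this depth. The related gene Nqo2 had 240 and 221 counts (-0.36, -0.63 to -0.09).

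From TMM scaling to log2(TPM + 1) the ratios of all members rose, by differing amounts. The median over all measured genes was -0.13 with TMM scaling and 0.37 on the log2(TPM + 1) scale, a shift of 0.50, so directions near 0 depend on the scale and are given here as distances from that median. Me1 then stood at -1.95 with TMM and -1.81 with TPM. Srxn1 stood at -0.61 and -0.45, Txnrd1 at -0.61 and -0.37, G6pdx at -0.19 and -0.10 and Keap1 at -0.11 and -0.14. Nfe2l2 stood at 0.09 and 0.17 and Gclc at 0.26 and 0.31. Gsr, at -0.06 and 0.09, changed sign between the scales, and Gclm was at 0.00 on both after rounding. With coding transcripts only, however, Gclm stood at 0.23. Before the median was taken away, the TPM ratios of Txnrd1 (0.00), Keap1 (0.22), G6pdx (0.27), Gclm (0.36), Gsr (0.46), Nfe2l2 (0.54) and Gclc (0.68) were 0 or above, and Srxn1 (-0.08) and Me1 (-1.44) were below. Of the 9 measured members, 4 had a TMM interval wholly below the median of all genes and 1, Gclc, wholly above it, where 32.4% and 32.3% of all measured genes did.

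**Figure D2:**
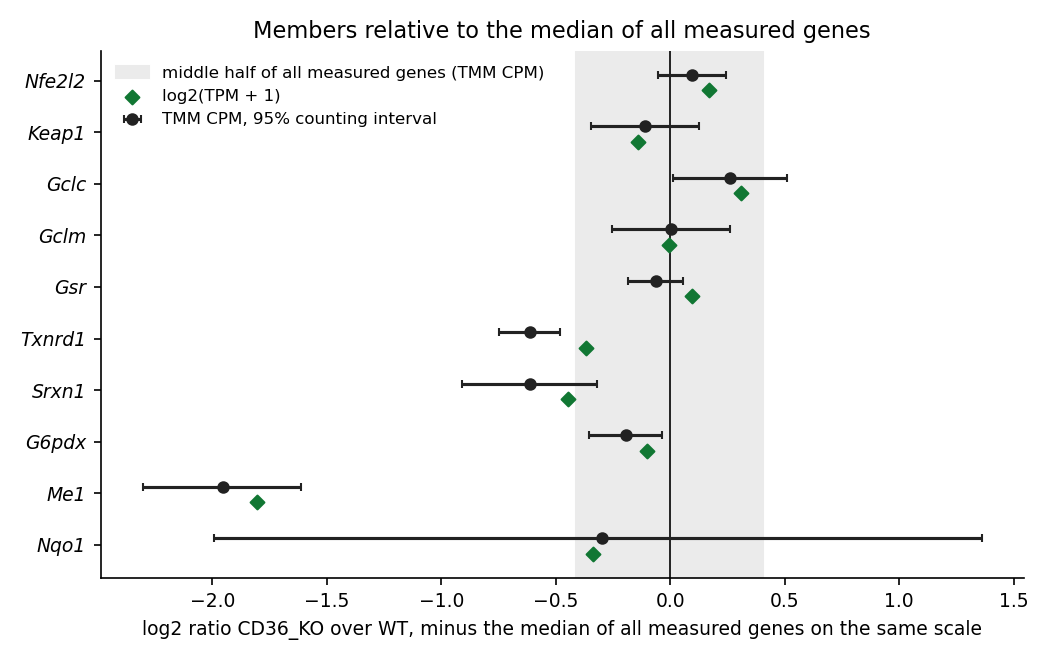
Log2 ratio of each member, CD36_KO over WT, minus the median of all measured genes on the same scale. Black dots with bars are TMM-scaled CPM with 95% counting intervals, green diamonds are log2(TPM + 1), and the grey band spans the 25th to 75th percentile of all measured genes. Me1 lies at -1.95 and -1.81, Txnrd1 and Srxn1 left of 0 on both scales, and the wide bar of Nqo1 rests on 15 counts.

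Levels between genes can be compared only per length, in TPM. In the WT library Gsr was the most abundant member at 26.1 ± 1.47 TPM (SD over 4 lanes), followed by Txnrd1 (18.9 ± 1.14), G6pdx (16.7 ± 1.15) and Nfe2l2 (15.7 ± 1.27). Lane values of neighbours in these last 3 overlapped. Gclm (9.64 ± 0.794), Me1 (6.72 ± 1.78), Keap1 (5.47 ± 0.719), Gclc (5.09 ± 1.32) and Srxn1 (4.47 ± 0.72) formed a second run in which each overlapped the next, and Nqo1 stood apart at 0.283 ± 0.00888 TPM. In the CD36_KO library Gsr again led at 36.3 ± 3.39 TPM. Nfe2l2 (23.3 ± 1.41), G6pdx (20.3 ± 1.98) and Txnrd1 (19.0 ± 2.65) came next and overlapped in turn. By their means, Nfe2l2 and Txnrd1 stood in the opposite order to that in WT. Their CD36_KO lanes overlapped, however, at 21.9 to 24.6 TPM and 16.2 to 22.3 TPM, so this order is uncertain. Gclm (12.7 ± 2.84), Gclc (8.73 ± 2.25) and Keap1 (6.56 ± 0.181) followed. Srxn1 (4.17 ± 0.744) and Me1 (1.84 ± 0.234) were then each clear of their neighbours. Me1 thus went from the sixth place to the ninth, with Nqo1 (0.309 ± 0.264) last.

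The members have 41 annotated transcripts in the files, 24 of them protein-coding, 12 long non-coding and 5 with a retained intron. Counts fell mostly on coding transcripts, from 87.6% of the gene (Gclm) to 100% (Nqo1) in WT and from 87.0% (Nfe2l2) to 100% (Nqo1) in CD36_KO. Short non-coding models weigh more in TPM than in counts. For Gclc, coding transcripts held 94.5% of counts and 67.3% of TPM in WT, and for Gsr 93.8% and 77.0%. Coding transcripts held 56.9% of Gclm TPM in WT and 87.9% in CD36_KO, and 72.4% and 93.9% of Me1 TPM. The TPM ratios of Gclm and Me1 therefore combine coding and non-coding differences. Nfe2l2-201, the coding transcript, had 638 and 693 counts, and the non-coding Nfe2l2-202 had 56.8 and 104. In Nfe2l2-202 every CD36_KO lane (20.2 to 32.0) was above every WT lane (12.2 to 15.0). These counts are not scaled for library size, and the share of all transcripts that separate this way was not counted. Me1-201 carried the Me1 difference with 275 against 89.1 counts, while Me1-202, which differs from it by 4 bases in length, had 34.5 counts from 2 WT lanes and 0 in CD36_KO. Keap1-201 and Keap1-205 traded places, at 29.8 and 165 counts in WT and 135 and 79.5 in CD36_KO. Within CD36_KO, however, Keap1-201 ran from 0 to 68.3 counts between lanes of the same library. Counts of overlapping transcripts depend on how the estimate divides reads, so the division of Keap1 is uncertain, but it does not enter the gene total. Another annotated gene overlaps 7 of the 10 members, among them Ikbkg on the strand opposite to G6pdx, the antisense gene Gm16754 at Keap1 and A330041J22Rik at Me1. The labels used here do not state the strand setting, so reads from such partners cannot be told apart where exons overlap.

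**Figure D3:**
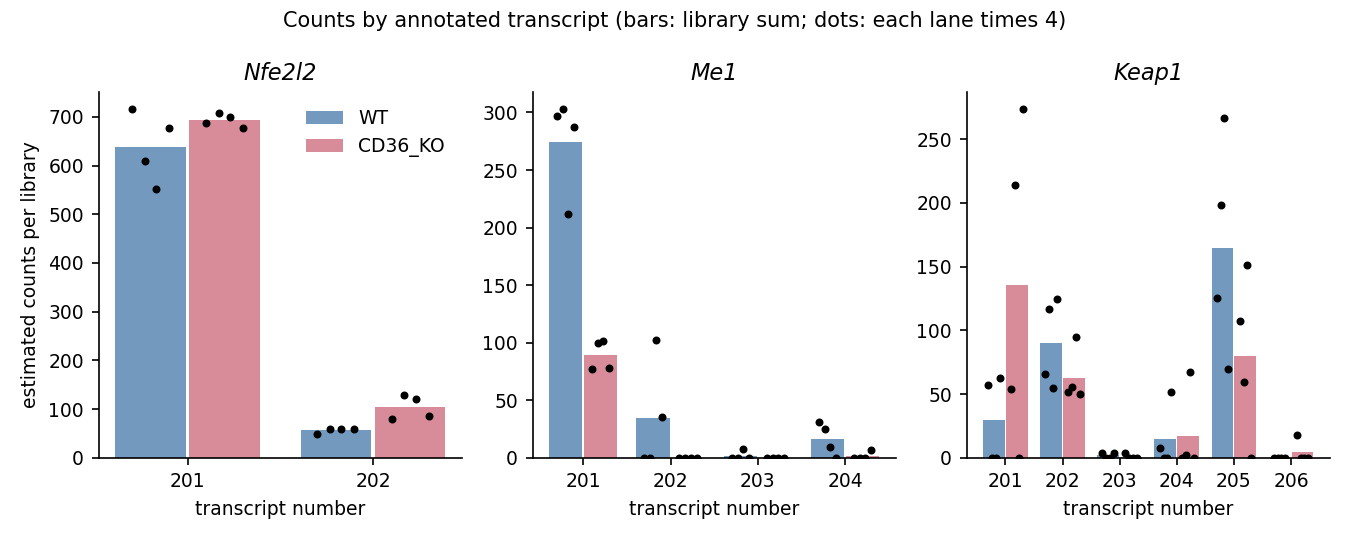
Estimated counts of each annotated transcript of Nfe2l2, Me1 and Keap1, with bars for the sum over the 4 lanes of WT (blue) and CD36_KO (red) and dots for each lane times 4. Me1-201 lies lower in every CD36_KO lane than in any WT lane, whereas Keap1-201 ran from 0 to 68.3 counts per lane in CD36_KO.

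One of the partners and brakes of NRF2, Sqstm1, was at least 2-fold lower with TMM scaling. Of 12 genes, all measured, 1 was at least 2-fold lower, 0 were higher and 11 lay between, with a median log2 ratio of -0.18. Of all measured genes 10.8% were lower and 6.5% higher. All CD36_KO lanes lay below all WT lanes for 6 of the 12 and above them for 0, beside 33.3% and 19.6% of all measured genes. The counting interval was below 0 for 6 and above 0 for 1, beside 40.7% and 24.9% of all measured genes. Sqstm1, which encodes p62, an autophagy receptor that binds KEAP1, had 2551 and 1370 counts (-1.14, -1.23 to -1.04). Among the small MAF partners, Mafg stood at -0.93, Maff at -0.06 and Mafk at 0.37. Bach1, a repressor that competes for the same sites, stood at -0.12, and Nfe2l1, the related factor NRF1, at -0.24. Of the KEAP1 ligase, Cul3 stood at 0.12 and Rbx1 at -0.40. The genes of the second route of NRF2 breakdown, Gsk3b and Btrc, stood at -0.38 and -0.06, and the KEAP1 binders Dpp3 and Pgam5 at -0.53 and -0.07.

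Other glutathione genes went both ways. The median over 15 measured of 18 was -0.43, and 2 were lower, 2 higher and 11 between. Calls in this group and the next ones are with TMM scaling, where 10.8% of all measured genes were lower and 6.5% higher. The glutathione transferase genes Gsta4 (116 and 20 counts, -2.77, -3.54 to -2.08) and Gstp1 (1389 and 717, -1.19) were the lower ones, and Gstp1 has near-identical copies that can share its reads. Mgst2, a microsomal glutathione transferase gene (55 and 203, 1.65), and Ggt1, which breaks down extracellular glutathione (33 and 86, 1.14), were the higher ones. Gpx1, a glutathione peroxidase gene and the most abundant of this group by mean CPM, stood at -0.43. Chac1, a glutathione-degrading enzyme gene picked out after its values were seen, was below 5 CPM with 33 and 2 counts (-4.28, -7.39 to -2.32).

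Genes of thioredoxin and peroxiredoxin had a median of -0.56, and 2 of 7 were lower, 0 higher and 5 between. Of all measured genes 10.8% were lower and 6.5% higher. The lower ones of this group were Prdx1, a peroxiredoxin (3382 and 1965 counts, -1.02), and Sesn2, a stress-induced sestrin (165 and 92, -1.08). Neither was called with total counts or on the log2(TPM + 1) scale. Txnip, the inhibitor of thioredoxin and the most abundant by mean CPM over both libraries, stood on the other side with 2693 and 4336 counts (0.45, 0.38 to 0.52). The remaining NADPH genes had a median of -0.62, and 1 of 13 measured was lower, 0 were higher and 12 lay between. Idh2, the mitochondrial NADP-dependent isocitrate dehydrogenase gene, was the lower one (668 and 335 counts, -1.23), and the transketolase gene Tkt, the most abundant by mean CPM, stood at -0.62. The targets in quinone, haem and iron handling had a median of -0.59, and 4 of 16 measured were lower, 0 higher and 12 between. These were Hmox1, the haem oxygenase (-2.03), the aldo-keto reductase gene Akr1b8 (-1.43) and the ferritin chains Fth1 (15983 and 7663 counts, -1.30) and Ftl1 (22222 and 12566, -1.06), whose processed copies can share reads. Ftl1 was not called with total counts, and of these 4 only Hmox1 was called on the log2(TPM + 1) scale.

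In all, 63 of these 69 other pathway genes were measured, and 10 of them were lower, 2 higher and 51 between (median -0.48). Lower genes were thus 10 of 63, beside 10.8% of all measured genes, and higher genes 2 of 63, beside 6.5%. These calls depended on the scale. With total counts alone 5 were lower, namely Gsta4, Idh2, Hmox1, Fth1 and Akr1b8, and on the log2(TPM + 1) scale 2 were, Gsta4 and Hmox1, while Ggt1, Mgst1, Mgst2 and Txnip were higher. Of all measured genes, 7.71% were lower and 9.14% higher with total counts, and 2.7% were lower and 12.3% higher on the TPM scale. The list's shares of genes at least 2-fold lower on these scales are thus close to the background. Without CD36_KO lane 2 the higher genes numbered 1 with TMM scaling. Smaller differences leaned lower: all CD36_KO lanes lay below all WT lanes for 40 of the 63 and above them for 6. Of all measured genes these shares were 33.3% and 19.6%. The TMM interval was wholly below the all-gene median for 37 of the 63 and wholly above it for 9, beside 32.4% and 32.3% of all measured genes. As a distance from the all-gene median, the list median was -0.35 with TMM and -0.31 with TPM, and the same for the 9 members was -0.11 and -0.10.

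Markers of other cells moved beside these groups. Macrophage and monocyte markers had 4 of 13 lower, 0 higher and 9 between, with summed levels of 6164 CPM (6120 to 6208 over lanes) and 4123 CPM (4106 to 4138). Fibroblast markers had 6 of 8 measured lower, 1 higher and 1 between, at 1232 CPM (1212 to 1255) and 342 CPM (336 to 345). Among hepatocyte markers, of which Alb had 581 and 4509 counts, 11 of 11 measured were higher, at 138 CPM (117 to 147) and 947 CPM (945 to 949). B cell markers were higher in 7 of 7, erythroid markers in 5 of 5, neutrophil markers in 4 of 5 and lung epithelium markers in 3 of 5 measured. Which of these cells the NRF2 pathway transcripts came from was not tested.

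**Figure D4:**
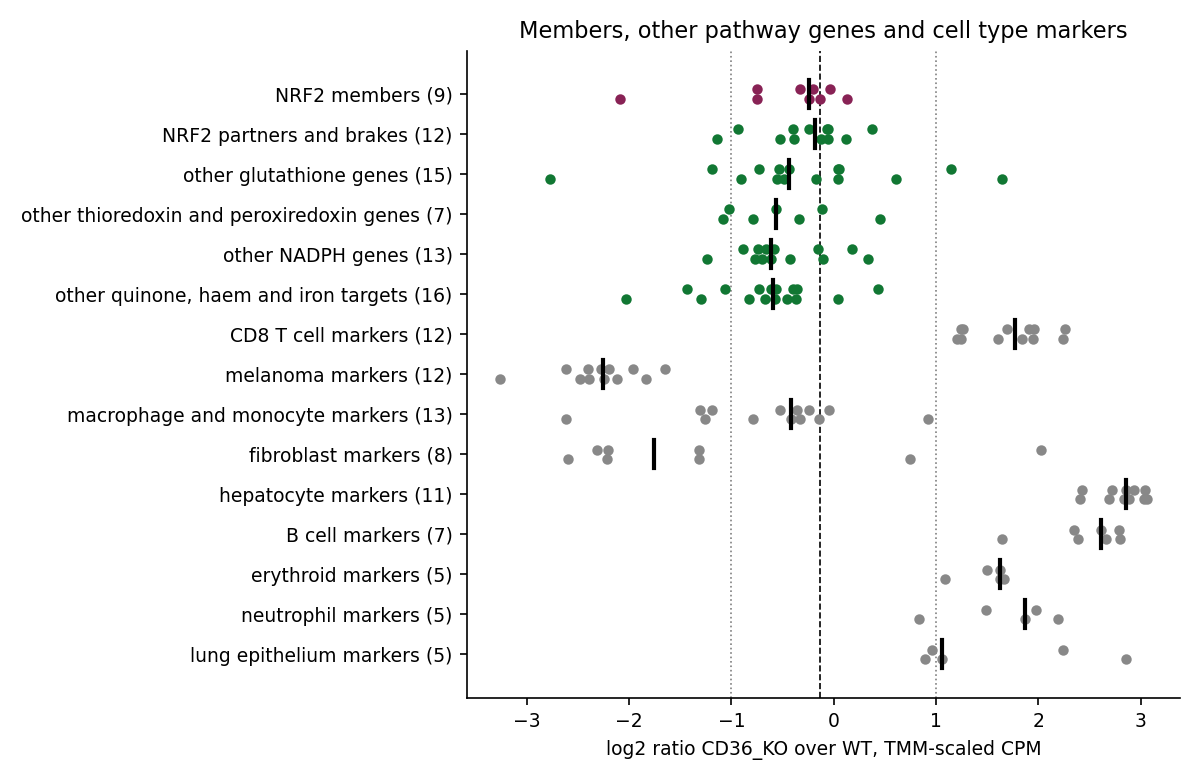
Log2 ratio, CD36_KO over WT, of each measured gene of the NRF2 set (purple), the other pathway groups (green) and the cell type marker lists (grey), with the number measured in brackets. Black bars are list medians, the dashed line is the median of all measured genes (-0.13) and dotted lines mark 2-fold. Me1 and Sqstm1 lie beyond 2-fold in the NRF2 set and among its partners, Mafg (-0.93), Txnrd1 and Srxn1 lie left of the dashed line, and the melanoma and hepatocyte lists lie far to either side at -2.26 and 2.85.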

How the data were processed

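The deposited files gave, per transcript and lane, estimated counts and TPM made by the authors, per the file headers. The submitters' processing notes name kallisto, DESeq2 and build GRCm38.p6, with no role for each. Tool versions and the annotation release are not given there. As deposited, the estimated counts carry no normalisation, and the deposited TPM values are scaled for length and lane total. The transcript and effective lengths, per the file headers in bases, served only to describe transcripts.

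Estimated counts were summed over transcripts to genes and over the 4 lanes of a library, then rounded. Lanes held 2497048 to 2611740 counts. TMM factors over the whole table (edgeR 4.0.16, R 4.3.3) were 0.934 for WT and 1.07 for CD36_KO. Lane CPM used the lane's total and its library's factor. Nnt stands under 2 gene models, which were summed. Coordinates came from GENCODE M21 (GRCm38), which held 99.7% of the gene identifiers. One hepatocyte symbol had no match in the files. The computation was tested on simulated counts.

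The members and lists were chosen with earlier results of these data known. The text names all members, all measured partners and brakes, and from each other group the called genes and the most abundant one by mean CPM. Me2, Me3, Nqo2, Chac1, Mgst1, Dct and Lyz2 were added after their values were seen. Alternatives were total counts, DESeq2 1.42.0 size factors, 2 TPM scales, other filters, coding transcripts only and leaving out each lane. With 1 library per genotype no test was run.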

Additional observations from a re-analysis of the deposited data

Results flagged for a closer look

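Among 20 sets of 4 lanes, 2 had a lane far from the other 3, by a gap over the range above Dixon's critical value. Chance alone flags about 1 in 20 sets of normally distributed values. That rate need not hold for counts as small as those of Nqo1. Keap1 in lane 1 of the WT library stood at 27.4 CPM, against 33.3 to 34.0 CPM in the other lanes. Nqo1 in lane 1 of the CD36_KO library stood at 1.43 CPM, or 4 counts, against 0.358 to 0.363 CPM, or 1 count, in the others.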

How the results depend on the processing

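Me1 was at least 2-fold lower in each of the 14 settings that were run with it, from -2.15 to -1.44, and no called member changed sign. As distances from the all-gene median, Me1, Txnrd1, Srxn1, G6pdx, Keap1 and Nqo1 were below 0 in 14 of 14 settings. Nfe2l2 and Gclc were below 0 in 0 of 14. Keap1 came as near to 0 as -0.005, and Nqo1 was below 5 CPM. Gclm (-0.12 to 0.23) was below 0 in 6 of 14 and Gsr (-0.11 to 0.09) in 11 of 14. These settings are not 14 separate checks. Taking the median away largely cancels a scaling factor between the libraries, and leaving out a lane keeps most reads. The count of members lower (1) and higher (0) held in every setting. Their median was -0.046 with total counts, 0.27 with log2(TPM + 1), 0.28 with log2(TPM + 0.1) and -0.081 with coding transcripts only.

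Of the 69 other pathway genes, 63 were measured with total counts and on the TPM scales. Total counts gave 5 lower with a median of -0.29. The log2(TPM + 1) scale gave 2 lower and 4 higher with 0.054, and log2(TPM + 0.1) gave 2 lower and 5 higher with 0.055. A minimum of 20 CPM left 46 genes and gave 0 higher with -0.55, and coding transcripts only gave 64 measured genes with a median of -0.40. With no filter beyond 1 count all 69 entered, with 13 lower, 2 higher and a median of -0.53. Leaving out a lane gave 1 to 3 higher, with 1 without CD36_KO lane 2, and 7 to 11 lower.

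For all measured genes, 1314 were lower and 792 higher. With total counts the balance turned, to 940 lower and 1114 higher. The counts were 329 and 1501 with log2(TPM + 1), 490 and 2291 with log2(TPM + 0.1), 2471 and 2381 without a filter beyond 1 count, and 679 and 344 from 20 CPM. In the same order the medians were 0.37, 0.44, 0.00048 and -0.16. They were 0.066 with total counts, -0.12 with DESeq2 size factors, -0.060 with coding transcripts only and -0.13 to -0.069 when a lane was left out.

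Without CD36_KO lane 1 the ratio of Nqo1 was -1.23, so 15 counts limit that gene. Other filters and left-out lanes change which genes or reads enter, and for the other settings the cause was not tested. No paired analysis was possible because lane numbers of 2 single libraries pair no samples and no test was run.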
